A study of Mus musculus with 8 samples.

Results

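The insulin receptor to FOXO pathway was followed through 9 genes, *Insr*, *Irs1*, *Irs2*, *Pik3ca*, *Pik3r1*, *Akt1*, *Akt2*, *Foxo1* and *Foxo3*, in liver RNA from 8 mice. They were chosen by name, as 9 of the 45706 Ensembl identifiers of the count table that the GENCODE annotation of GRCm38 gives these symbols, and all 9 had enough reads to be tested. Insulin binds its receptor at the hepatocyte surface, and the activated receptor phosphorylates the adaptor proteins IRS1 and IRS2, which recruit phosphoinositide 3-kinase and so activate the kinase AKT. AKT phosphorylates the FOXO transcription factors and keeps them out of the nucleus. In the fasted liver, unphosphorylated FOXO factors enter the nucleus and drive the genes of glucose production, as well as *Irs2* itself.

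The livers came from male mice of the strain labelled C56B6/J, 4 labelled *Srsf10-kd* (genotype Srsf10KD) and 4 labelled *Ctrl* (genotype WT). All 8 mice had been injected in the tail vein at 6 weeks of age with an AAV2/8 vector, which carried a mirE/shRNA against *Srsf10*, a splicing-factor gene, in the first group and was the AAV-*Ctrl* vector in the second. In both groups a diet with 60% of calories from fat was begun 4 weeks later and fed for 12 weeks. The chicken β-actin promoter that drives GFP and the hairpin in this vector is active in many cell types, and the feeding state and hour at which livers were taken are not given in the sources used here. The study asked how loss of *Srsf10* affects metabolism on this diet, the response to insulin included, and the comparison gives the RNA levels of that pathway.

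Levels are given as CPM, a gene's read count divided by its library's TMM-scaled size. Each library held from 50456404 to 59697241 counted reads, and the hepatocyte markers (*Alb*, *Apoa1*, *Apob*, *Ttr*, *Tat* and *Cps1*) summed to between 73916 and 107912 CPM. *Srsf10* itself ranged from 34.0 to 41.0 CPM in *Srsf10-kd* and from 30.9 to 35.3 CPM in *Ctrl* livers (log2 fold change 0.15, edgeR adjusted p = 0.378), which is not lower, so the groups are named here by their labels. The study itself reports lower *Srsf10* RNA by qPCR and lower SRSF10 protein by western blot in livers given this hairpin. Whether the livers sequenced were among those is not given in the sources used here. The library *Srsf10-kd* 2 held pancreatic transcripts, with a marker sum of 143 CPM (*Cela1*, *Cpa1*, *Prss2*, *Gcg* and *Sst*) against 10.4 to 37.9 CPM in the other 7 livers. The pancreatic sum of 37.9 CPM was that of *Srsf10-kd* 3. This liver also had the highest adipocyte marker sum (*Adipoq*, *Lep*, *Plin1* and *Cfd*), 31.8 CPM against 0.632 to 11.5 CPM in the other 7 livers. *Ctrl* 3 and *Srsf10-kd* 3 stood apart in their own groups by how counts depended on transcript length. The slope of a library's log2 CPM deviation on log2 transcript length was -0.029 in *Ctrl* 3 against 0.093, 0.10 and 0.14 in the other *Ctrl* livers, and -0.19 in *Srsf10-kd* 3 against -0.066 to -0.024 in the others. It was thus negative in every *Srsf10-kd* liver and positive in every *Ctrl* liver but *Ctrl* 3. As the trend largely followed the group labels, its removal can also take away a difference between the groups, and these cannot be told apart. The median transcript length of the 9 genes is 7113 bases, against 2841 bases over all genes tested, and only *Akt1*, at 2690 bases, lies below the latter. The difference of each of the 9 is therefore also given after removal of this length trend.

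*Irs2*, which encodes 1 of the 2 main IRS adaptors of the liver, showed the largest difference of the 9 genes between the groups. Its mean level was 3.36-fold higher in *Ctrl* than in *Srsf10-kd* livers in the fitted model, and no *Srsf10-kd* liver reached the lowest *Ctrl* liver. The receptor, the other adaptor, both subunits of phosphoinositide 3-kinase, both AKT kinases and both FOXO factors had log2 fold changes between -0.28 and 0.072. With edgeR's quasi-likelihood test and a Benjamini-Hochberg adjusted p under 0.05 none of the 9 genes was called, of 0.071% called over all 15491 genes tested. At an unadjusted p under 0.05 the same test marked 2 of the 9, *Irs2* and *Akt2*, both lower. DESeq2 called 1 of the 9, *Irs2*, where it called 5.27% of all genes with an adjusted p. The call on *Irs2* thus depended on the test, while its direction was the same in every fit.

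**Figure D1:**
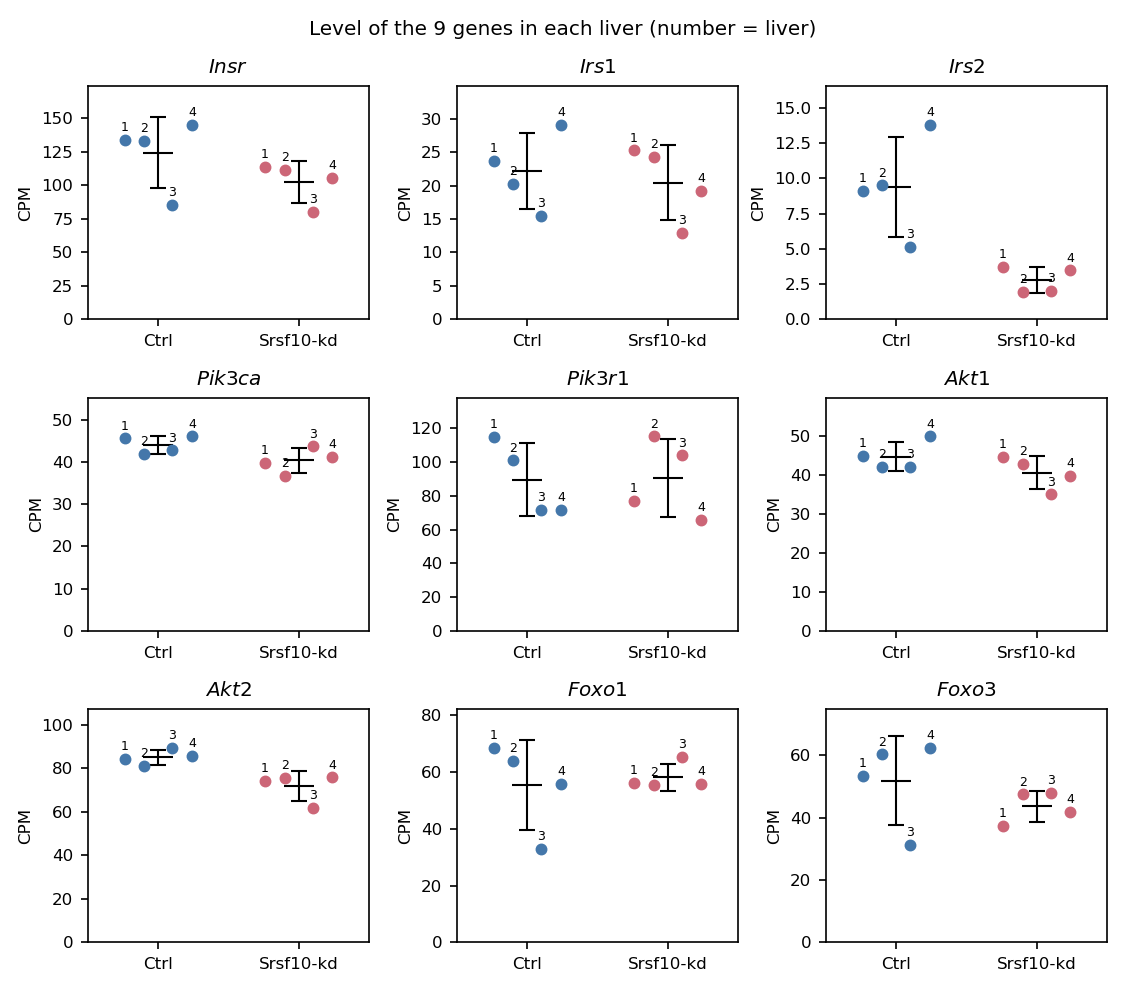
Level of each gene in each liver, in CPM on axes that start at 0, with the liver's number above its point, the group mean as a horizontal line and the SD (n = 4) as a bar. *Irs2* lies between 1.94 and 3.71 CPM in *Srsf10-kd* and between 5.13 and 13.8 CPM in *Ctrl* livers, and only *Irs2* and *Akt2* have groups that do not overlap.

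The insulin receptor gene *Insr* (ENSMUSG00000005534) lies on the minus strand of chromosome 8 at chr8:3122061-3279617 of GRCm38, and its longest transcript has 21 exons and 9355 bases. Its level was 134, 133, 85.3 and 145 CPM in *Ctrl* 1 to 4 and 114, 112, 79.9 and 106 CPM in *Srsf10-kd* 1 to 4. Liver 3 was the lowest of each group, and the groups overlapped through *Ctrl* 3. The *Ctrl* mean was 124 ± 26.6 CPM and the *Srsf10-kd* mean 103 ± 15.6 CPM (each SD, n = 4). The difference, a log2 fold change of -0.28 with a standard error of 0.18 (adjusted p = 0.365), was not called, and it was 0.056 (adjusted p = 0.836) once the length trend was removed.

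*Irs1* and *Irs2* encode adaptors that link the receptor to phosphoinositide 3-kinase, and in the liver *Irs2* is known to rise on fasting and to fall after a meal. *Irs1* (ENSMUSG00000055980, chr1:82233101-82291416, minus strand) was measured at 23.7, 20.3, 15.5 and 29.0 CPM in *Ctrl* 1 to 4 and at 25.3, 24.3, 13.0 and 19.2 CPM in *Srsf10-kd* 1 to 4. The groups covered much the same range, and the lowest liver was again number 3 in both. *Irs1* had a log2 fold change of -0.11 with a standard error of 0.24 (adjusted p = 0.784), or of 0.20 (adjusted p = 0.609) without the length trend. The exons of *Irs1* share 30.9% of their bases with *Gm9747* on the opposite strand, which held 0 to 5 counts per liver. Whether strand was used in counting is not given in the sources used here, so reads of such a pair cannot be told apart.

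*Irs2* (ENSMUSG00000038894, chr8:10984681-11008458, minus strand) has 2 exons and a transcript of 6323 bases. The deposited counts were 526, 581, 258 and 786 in *Ctrl* 1 to 4 and 213, 101, 104 and 195 in *Srsf10-kd* 1 to 4. As CPM these were 9.13, 9.50, 5.13 and 13.8 in *Ctrl* and 3.71, 1.94, 2.02 and 3.47 in *Srsf10-kd*. *Ctrl* 3 was the lowest and *Ctrl* 4 the highest of their group, and livers 2 and 3 were the lowest of the *Srsf10-kd* group. The *Ctrl* mean was 9.39 ± 3.54 CPM and the *Srsf10-kd* mean 2.79 ± 0.936 CPM (each SD, n = 4). The log2 fold change of -1.75 (standard error 0.32) ranked 45 of 15491 by p, and its adjusted p of 0.0826 missed the threshold in edgeR. In DESeq2 it was -1.76 (adjusted p = 2.06e-05), and in limma-voom with sample quality weights -1.61 (adjusted p = 0.00727). An exact permutation of the group labels, with 70 possible assignments, gave p = 0.0286, the smallest p it allows.

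The lower level of *Irs2* did not rest on 1 library. Leaving out each liver in turn gave log2 fold changes between -1.95 and -1.51, with edgeR adjusted p from 0.0213 without *Ctrl* 3 to 0.304 without *Ctrl* 2. Without *Srsf10-kd* 2, the library with pancreatic transcripts, the value was -1.61 (adjusted p = 0.125). Without the length trend it was -1.49 (adjusted p = 0.110), and without both livers numbered 3, a choice made after the data were seen, it was -1.82 (adjusted p = 0.0107). In bulk tissue, fewer cells that express *Irs2* and less *Irs2* RNA per cell cannot be told apart. Of the marker lists, the cholangiocyte list (*Krt19*, *Krt7*, *Epcam*, *Sox9* and *Spp1*) also separated the groups, with a sum of 46.5 to 68.6 CPM in *Srsf10-kd* and 31.4 to 39.1 CPM in *Ctrl* livers. All 5 of its genes were higher in *Srsf10-kd*, with 1 called by DESeq2 and 0 by edgeR. Over all genes, 48.7% were lower and DESeq2 called 5.27%. The hepatocyte list also had 1 DESeq2 call, and all 3 adipocyte and all 4 pancreatic genes tested were higher too. The part of any marker list in the difference of *Irs2* was not tested. The sums of the hepatocyte, macrophage, endothelial, stellate, lymphocyte, adipocyte and pancreatic lists overlapped between the groups.

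The 300 bases around the RefSeq start of *Irs2* (GRCm38.p6, chr8:11008880-11009179, minus strand, 250 bases before the start and 50 after it) are printed because *Irs2* separates the groups and is a textbook FOXO target. The promoter of *Igfbp1* (chr11:7197537-7197836, plus strand), the classic gene with an insulin response element, stands beside it. Capitals mark the core of the insulin response element, CAAAACA, read on either strand as CAAAACA or TGTTTTG.
Irs2 promoter: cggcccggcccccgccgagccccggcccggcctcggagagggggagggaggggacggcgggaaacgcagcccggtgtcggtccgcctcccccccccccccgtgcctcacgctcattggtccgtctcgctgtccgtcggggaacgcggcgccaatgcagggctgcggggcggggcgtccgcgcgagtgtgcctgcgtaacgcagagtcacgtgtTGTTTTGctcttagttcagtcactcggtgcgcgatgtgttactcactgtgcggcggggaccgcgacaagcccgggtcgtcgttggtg
Igfbp1 promoter: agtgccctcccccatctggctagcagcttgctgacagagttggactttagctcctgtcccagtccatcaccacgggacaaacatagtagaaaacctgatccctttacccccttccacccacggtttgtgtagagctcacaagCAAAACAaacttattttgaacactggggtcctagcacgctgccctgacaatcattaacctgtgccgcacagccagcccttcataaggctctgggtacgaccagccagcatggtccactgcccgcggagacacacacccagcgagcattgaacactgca
The element begins 37 bases before the RefSeq start in *Irs2*, on the opposite strand, and 108 bases before it in *Igfbp1*. On the minus strand the *Irs2* gene of GENCODE begins at base 11008458, so the whole printed window lies before that start. CAAAACA also occurs at 2 places in the promoter of *Irs1*, 111 and 32 bases before the start, and in no other of the 13 promoters that RefSeq gives for 8 of the 9 genes (all but *Insr*). The FOXO motif GTAAACA, searched on both strands, was found in 1 of the 13, a promoter of *Akt1*, 161 bases before the start. Of all 32851 promoters of this length, 6.28% hold CAAAACA and 3.65% hold GTAAACA, and a match is a description of the letters only.

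The study's primer list holds a pair for *Irs2*, printed here because it shows which stretch of the gene a targeted measurement of the difference would read.
Irs2 forward primer: ggtttcatgtcccttgacga
Irs2 reverse primer: ctgtggctactgaaggctctc
Each primer matched the *Irs2* transcript once, at transcript bases 1505 to 1524 and 1549 to 1569 (chr8:11006935-11006954 and chr8:11006890-11006910), so the 65-base product lies within the coding part of exon 1. The counts used here cover the whole transcript, of which 2.56% overlaps *9530052E02Rik* on the opposite strand, a gene with 0 to 8 counts per liver.

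Phosphoinositide 3-kinase is built from a catalytic subunit, p110α, encoded by *Pik3ca*, and a regulatory subunit, p85α, encoded by *Pik3r1*. *Pik3ca* (ENSMUSG00000027665, chr3:32397671-32468486, plus strand) was at 45.6, 41.9, 42.7 and 46.0 CPM in *Ctrl* and 39.7, 36.7, 43.7 and 41.2 CPM in *Srsf10-kd* livers. It was the steadiest of the 9 genes across the *Srsf10-kd* livers on the log2 scale, and the groups overlapped by a narrow margin. Its log2 fold change of -0.13 had a standard error of 0.094 (adjusted p = 0.420), and it was 0.18 (adjusted p = 0.538) without the length trend. *Pik3r1* (ENSMUSG00000041417, chr13:101680563-101768217, minus strand) ran from 71.5 to 115 CPM in *Ctrl* and from 65.9 to 115 CPM in *Srsf10-kd* livers. *Ctrl* 1 and 2 and *Srsf10-kd* 2 and 3 formed its upper range, so the spread lay within the groups and not between them. The estimate for *Pik3r1* was 0.015 on the log2 scale with a standard error of 0.22 (adjusted p = 0.972), -0.29 in limma-voom and 0.29 (adjusted p = 0.553) without the length trend.

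AKT1 and AKT2 are the kinases downstream of phosphoinositide 3-kinase, and AKT2 is the form best known for insulin action on metabolism. *Akt1* (ENSMUSG00000001729, chr12:112653821-112674884, minus strand) was at 44.8, 42.0, 41.9 and 49.8 CPM in *Ctrl* and 44.5, 42.8, 35 and 39.8 CPM in *Srsf10-kd* livers. The groups overlapped, and the log2 fold change of -0.14 had a standard error of 0.11 (adjusted p = 0.446), against -0.15 (adjusted p = 0.510) without the length trend. *Akt2* (ENSMUSG00000004056, chr7:27591552-27640826, plus strand) was at 84.3, 81.0, 89.4 and 85.6 CPM in *Ctrl* and 74.4, 75.7, 61.9 and 75.8 CPM in *Srsf10-kd* livers. All *Srsf10-kd* livers lay below all *Ctrl* livers, with *Srsf10-kd* 3 well below the other three of its group. The *Ctrl* mean was 85.1 ± 3.47 CPM and the *Srsf10-kd* mean 72.0 ± 6.74 CPM (each SD, n = 4), with an exact permutation p of 0.0286. On the log2 scale *Akt2* differed by -0.24 with a standard error of 0.10, and the adjusted p was 0.211 in edgeR and 0.153 in DESeq2. The difference was -0.17 without *Srsf10-kd* 3 and -0.10 (adjusted p = 0.641) without the length trend. Of its stretches as long as a read, 6.06% also occur in *Akt2-ps*, so a small share of its reads could match that copy as well. Groups that do not overlap, with *Srsf10-kd* lower, were found for 2 of the 9 genes and for 7.53% of all genes tested, and the opposite for 0 of the 9 and 6.73% of all. An unadjusted p under 0.05 was found for 2 of the 9 in the lower direction, against 10.6% of all genes, and for 0 of the 9 in the higher direction, against 11.2%.

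FOXO1 and FOXO3 are the transcription factors that insulin signalling restrains. *Foxo1* (ENSMUSG00000044167, chr3:52268336-52353221, plus strand) was at 68.6, 64.1, 33.0 and 56.0 CPM in *Ctrl* and 56.4, 55.5, 65.4 and 55.9 CPM in *Srsf10-kd* livers. *Ctrl* 3 lay far below the other *Ctrl* livers while the *Srsf10-kd* livers spanned a narrow range, and *Srsf10-kd* 3 was the highest of its group. *Foxo1* had a log2 fold change of 0.072 with a standard error of 0.20 (adjusted p = 0.842), and it was -0.11 without *Ctrl* 3 and 0.41 (adjusted p = 0.297) without the length trend, so its direction was not settled. Its exons share 7.78% of their bases with *Gm20402* on the opposite strand. *Foxo3* (ENSMUSG00000048756, chr10:42181841-42276755, minus strand) was at 53.3, 60.2, 31.4 and 62.3 CPM in *Ctrl* and 37.3, 47.4, 47.8 and 41.9 CPM in *Srsf10-kd* livers. *Ctrl* 1, 2 and 4 lay above all *Srsf10-kd* livers and *Ctrl* 3 below them. For *Foxo3* the log2 fold change of -0.25 had a standard error of 0.20 (adjusted p = 0.455), and was 0.036 (adjusted p = 0.937) without the length trend. Without both livers numbered 3 it came to -0.47 (adjusted p = 0.0374), and that of *Insr* to -0.32 (adjusted p = 0.0494). Those 2 differences passed the threshold only in that fit, which called 3 of the 9 genes and 8.62% of all genes it tested.

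**Figure D2:**
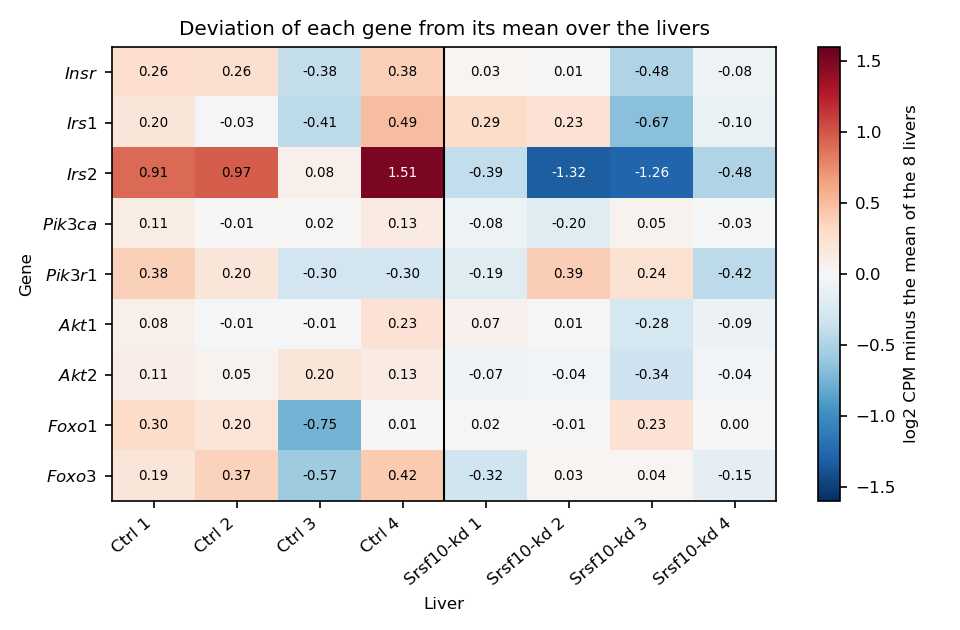
Log2 CPM of each gene (rows) in each liver (columns) minus the gene's mean over the 8 livers, on a scale from blue (lower) to red (higher). The *Irs2* row runs from 0.079 to 1.51 in *Ctrl* and from -1.32 to -0.39 in *Srsf10-kd* livers, and the *Ctrl* 3 column is at -0.75 for *Foxo1* and -0.57 for *Foxo3*.

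Some livers stood low or high for many of the 9 genes. *Ctrl* 3 held the lowest *Ctrl* value for 7 of the 9 genes and *Ctrl* 4 the highest for 6, as the plot of deviations by liver shows. Among *Srsf10-kd* livers, number 3 was the lowest for 4 genes and the highest for 3. *Irs2* had the widest spread within a group on the log2 scale, with an SD of 0.59 in *Ctrl* and 0.49 in *Srsf10-kd* livers, and *Akt2* the narrowest in *Ctrl*, with 0.059. Over the 9 genes, 7 log2 fold changes were below 0 and 2 above, with a median of -0.14 against 0.013 over all genes tested, of which 48.7% were below 0. Without the length trend, 3 of the 9 were below 0 and the median was 0.056. The small negative values of the long genes *Insr*, *Irs1*, *Pik3ca* and *Foxo3* thus changed sign with this step, while *Irs2*, *Akt1* and *Akt2* stayed below 0.

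**Figure D3:**
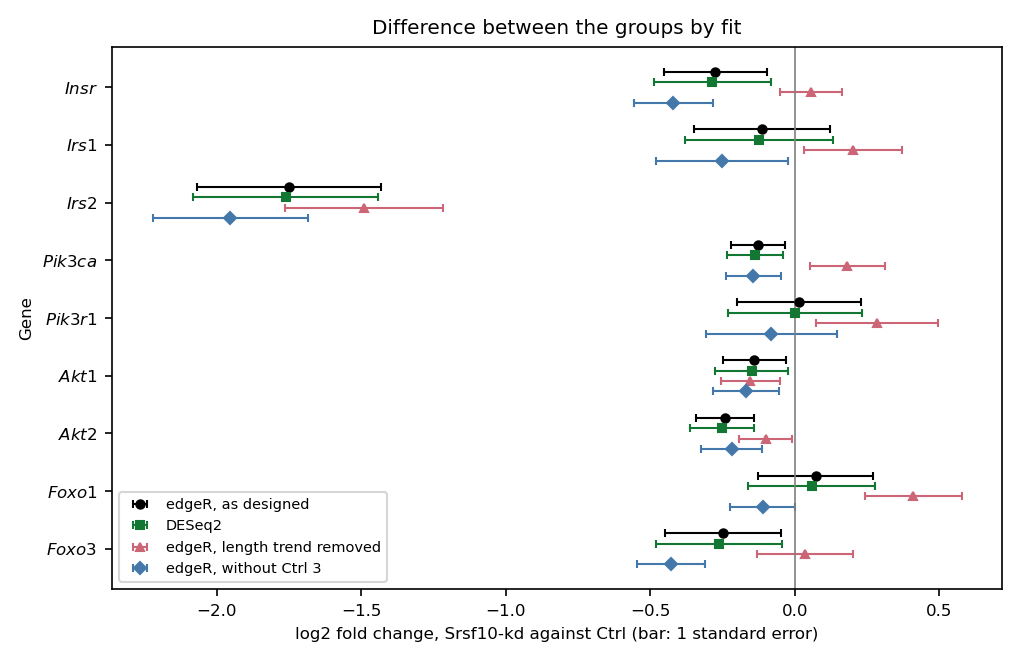
Log2 fold change of each gene, *Srsf10-kd* against *Ctrl*, with bars of 1 standard error, in 4 fits: edgeR, DESeq2, edgeR after removal of the length trend, and edgeR without *Ctrl* 3. *Irs2* lies between -1.95 and -1.49 in all 4, and the other genes lie between -0.43 (*Foxo3* without *Ctrl* 3) and 0.41 (*Foxo1* after removal of the trend). The length-corrected values of *Insr*, *Irs1*, *Pik3ca* and *Foxo3* lie on the other side of 0 from edgeR's own. So do the values of *Foxo1* and *Pik3r1* without *Ctrl* 3.

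Set against transcript length, the levels fell into an order that was close to the same in both groups. In *Ctrl* livers the order in CPM per kb of transcript was *Akt2* (18.7 ± 0.764, SD, n = 4), *Akt1* (16.6 ± 1.37), *Insr* (13.3 ± 2.84), *Pik3r1* (12.6 ± 3.05), *Foxo3* (7.56 ± 2.07), *Foxo1* (6.4 ± 1.82), *Pik3ca* (4.94 ± 0.232), *Irs1* (2.42 ± 0.624) and *Irs2* (1.48 ± 0.560). The ranges of the neighbours *Akt2* and *Akt1*, *Insr* and *Pik3r1*, *Foxo3* and *Foxo1*, *Foxo1* and *Pik3ca*, and *Irs1* and *Irs2* overlapped. Within single *Ctrl* livers, *Akt2* per kb was 1.02 to 1.26 times *Akt1* and *Irs2* was below *Irs1* in all 4, while *Foxo1* was below *Foxo3* in 3 of the 4. In *Srsf10-kd* livers *Pik3r1* and *Insr* stood in the opposite order, as did *Foxo1* and *Foxo3*, each within overlapping ranges. The pair at the bottom moved apart, since *Irs1* was at 2.24 ± 0.616 CPM per kb and *Irs2* at 0.441 ± 0.148 CPM per kb, with ranges that did not overlap. The adaptors were thus the least abundant step of the pathway per length in both groups.

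The ratio of 2 genes within 1 liver does not depend on the scaling between libraries, and 4 such ratios were compared with an exact permutation test and a Benjamini-Hochberg adjustment over the 4. *Irs2* per kb was 0.559, 0.678, 0.481 and 0.688 of *Irs1* in *Ctrl* 1 to 4 and 0.214, 0.118, 0.229 and 0.264 of it in *Srsf10-kd* 1 to 4. The ratio did not overlap between the groups and differed by -1.59 on the log2 scale (exact permutation p = 0.0286, adjusted 0.114). *Foxo1* per kb was 1.02, 0.841, 0.833 and 0.710 of *Foxo3* in *Ctrl* and 1.19, 0.924, 1.08 and 1.06 of it in *Srsf10-kd* livers. Here only *Ctrl* 1 reached the *Srsf10-kd* range, and the difference of 0.33 on the log2 scale had an exact permutation p of 0.0571 (adjusted 0.114). The ratios of *Akt2* to *Akt1* (difference -0.10, exact permutation p = 0.257, adjusted 0.343) and of *Pik3r1* to *Pik3ca* (0.14, exact permutation p = 0.629, adjusted 0.629) overlapped widely. With 4 livers against 4, the smallest exact p of 0.0286 cannot pass 0.05 after adjustment over 4 ratios unless at least 3 of them reach it.

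**Figure D4:**
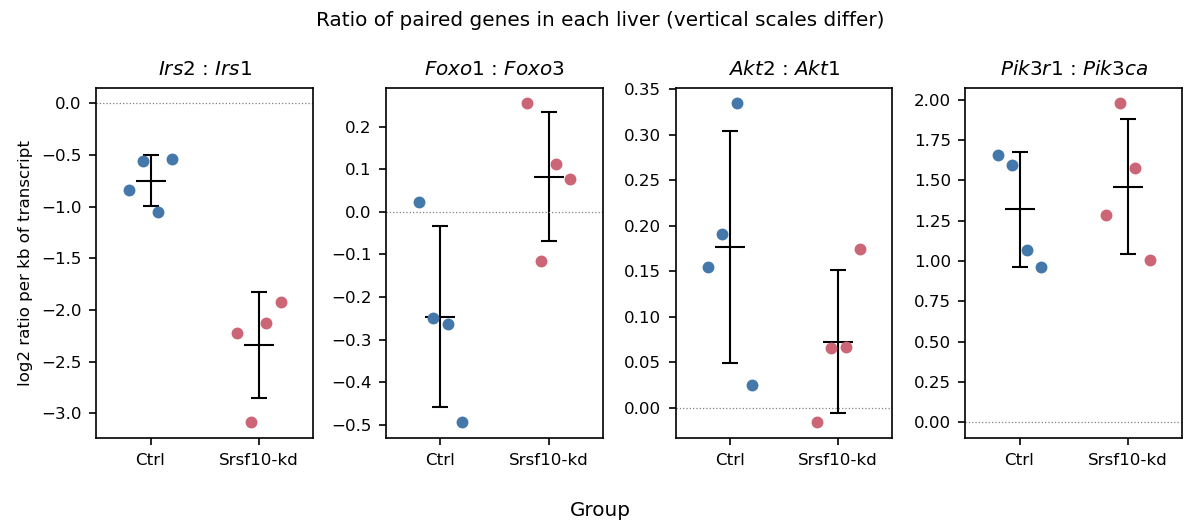
Log2 ratio of CPM per kb for 4 gene pairs in each liver, with the group mean as a horizontal line and the SD (n = 4) as a bar, on vertical scales that differ between panels. The *Irs2* to *Irs1* ratio lies between -1.06 and -0.54 in *Ctrl* and between -3.09 and -1.92 in *Srsf10-kd* livers, and the other 3 pairs overlap.

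The wider pathway was described through 7 lists with 114 other genes, of which 109 were tested. With edgeR 0 of the 109 passed an adjusted p of 0.05, 28 had an unadjusted p under 0.05 (6 higher, 22 lower), and DESeq2 called 5, of which 1 was higher and 4 lower. Over all genes the shares were 11.2% higher and 10.6% lower at that unadjusted p and 5.27% called by DESeq2, so the DESeq2 calls named below are single genes and no result about a list. The median log2 fold change of the 109 was -0.14, with 72 below 0, and it was -0.011 with 57 below 0 once the length trend was removed. The lean towards lower values was thus seen only before that step, which can also take away a difference between the groups.

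Among the ligands, *Igf2*, an insulin-like growth factor that the adult mouse liver hardly makes, rose in DESeq2 (adjusted p = 0.0352) with 2.0, 1.83, 2.26 and 2.33 CPM in *Srsf10-kd* against 0.937, 1.18, 1.83 and 1.07 CPM in *Ctrl* livers. The highest *Ctrl* and the lowest *Srsf10-kd* values met, and edgeR gave a log2 fold change of 0.75 (adjusted p = 0.133). *Igf1*, the growth factor that liver secretes, was at 356 to 515 CPM in *Ctrl* and 370 to 648 CPM in *Srsf10-kd* livers. The insulin genes, which are expressed in pancreatic beta cells, failed the filter on low counts. *Ins2* had 281 counts in *Srsf10-kd* 2, 13 in *Srsf10-kd* 3, 3 in *Srsf10-kd* 4 and 4 in *Ctrl* 1, and *Ins1* had 103, 8, 0 and 1 in the same livers, with 0 counts of both in the other 4. The library with the most insulin transcripts was thus the one with the highest pancreatic marker sum.

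Of 23 other receptor, adaptor and kinase genes tested, *Sos1*, a guanine nucleotide exchange factor for RAS, fell in DESeq2 (adjusted p = 0.0431), with 26.1 to 33.7 CPM in *Srsf10-kd* and 36.6 to 48.5 CPM in *Ctrl* livers. In edgeR its log2 fold change was -0.43 (adjusted p = 0.130), and -0.14 without the length trend. *Rictor*, which defines the kinase complex mTORC2 that phosphorylates AKT, was at 13.0 to 17.4 CPM in *Srsf10-kd* and 17.4 to 23.9 CPM in *Ctrl* livers, and *Pik3cb*, the catalytic subunit p110β, at 9.34 to 14.2 and 14.9 to 15.4 CPM. Their log2 fold changes were -0.45 (adjusted p = 0.139) and -0.41 (adjusted p = 0.151), and *Pik3c2a* gave -0.45 (adjusted p = 0.157). None of these 3 passed in DESeq2 either. Without the length trend they shrank to between -0.18 and -0.13.

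Of the 18 negative regulators, 0 passed in either tool, where edgeR called 0.071% and DESeq2 5.27% of all genes. An unadjusted edgeR p under 0.05 was found for 5, of which 4 were lower, against 10.6% of all genes lower and 11.2% higher. *Ptpn2*, a tyrosine phosphatase, was higher, at 11.5 to 15.4 CPM against 9.39 to 10.7 CPM, with a log2 fold change of 0.39 (adjusted p = 0.138) that stayed at 0.38 without the length trend. *Inpp4b*, a lipid phosphatase, and *Phlpp2*, a phosphatase that acts on AKT, gave -0.86 (adjusted p = 0.130) and -0.52 (adjusted p = 0.151), or -0.58 and -0.24 without the length trend.

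**Figure D5:**
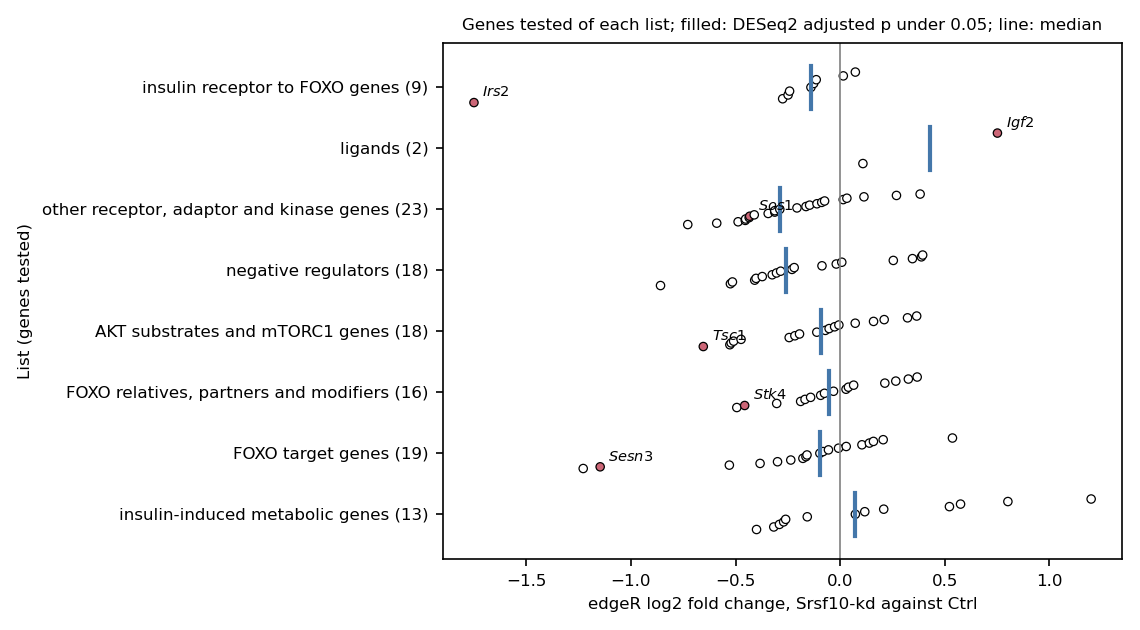
Log2 fold change, *Srsf10-kd* against *Ctrl*, of each tested gene in the 9 genes and the 7 other lists, with the list's median as a line and genes with a DESeq2 adjusted p under 0.05 filled and named. *Irs2* at -1.75 is the lowest point of all lists, and the list medians lie between -0.29 and 0.43.

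Of 18 AKT substrates and genes of mTORC1 tested, *Tsc1*, which encodes a brake on mTORC1, fell in DESeq2 (adjusted p = 0.0133). It was at 13.5 to 16.1 CPM in *Srsf10-kd* and 16.3 to 28.3 CPM in *Ctrl* livers, with an edgeR log2 fold change of -0.65 (adjusted p = 0.116), or -0.36 without the length trend. *Gsk3b*, the kinase through which AKT controls glycogen synthesis, was at 30.5 to 39.2 and 39.3 to 44.8 CPM, a log2 fold change of -0.24 (adjusted p = 0.218) that was 0.051 without the length trend. *Foxk1* gave -0.53 (adjusted p = 0.202) and *Bad*, a cell death regulator, gave 0.37 (adjusted p = 0.219), each with overlapping groups, and without the length trend these were -0.23 and 0.18. Of the 16 relatives, partners and modifiers of FOXO tested, *Stk4*, a kinase that phosphorylates FOXO factors, fell in DESeq2 (adjusted p = 0.0106), with 14.4 to 18.1 CPM in *Srsf10-kd* against 20.3 to 23.9 CPM in *Ctrl* livers and an edgeR log2 fold change of -0.46 (adjusted p = 0.116), or -0.28 without the length trend. The relative *Foxo4* was at 19.8 to 24.9 CPM against 26.7 to 28.9 CPM, with a log2 fold change of -0.30 (adjusted p = 0.152). *Ywhaz* and *Sfn*, members of the 14-3-3 proteins that hold phosphorylated FOXO in the cytoplasm, were at 0.27 (adjusted p = 0.165) and 0.37 (adjusted p = 0.192) on the log2 scale, with no overlap between the groups, and at 0.32 and 0.21 without the length trend.

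Of the 19 FOXO target genes, all tested, DESeq2 called 1, close to its share of 5.27% over all genes. This was *Sesn3*, which encodes a stress-response protein. It was at 2.09, 2.25, 1.25 and 1.5 CPM in *Srsf10-kd* 1 to 4 and 3.89, 4.78, 2.67 and 4.35 CPM in *Ctrl* 1 to 4. As for *Irs2*, *Ctrl* 3 was the lowest *Ctrl* liver and still above all *Srsf10-kd* livers. The log2 fold change of *Sesn3* was -1.15 (standard error 0.24) with an adjusted p of 0.0993 in edgeR and 0.00105 in DESeq2, and -0.83 without the length trend. *Pck1* and *G6pc*, genes of glucose production, gave -0.30 (standard error 0.23, adjusted p = 0.440) and -0.18 (standard error 0.26, adjusted p = 0.684). *Igfbp1*, which encodes a binding protein for insulin-like growth factors, gave -0.16 (standard error 0.51, adjusted p = 0.861). These 3 had the sign of *Sesn3* and overlapping groups, and whether they differed from it was not tested. *Bcl6* gave -1.23 (adjusted p = 0.227) with a wide spread, 5.63 to 23.5 CPM in *Srsf10-kd* and 11.3 to 57.5 CPM in *Ctrl* livers. *Mttp* and *Fbxo32* gave -0.38 (adjusted p = 0.199) and -0.53 (adjusted p = 0.166), or -0.28 and -0.25 without the length trend. The median of the 19 was -0.10, and -0.17 without the length trend. Their RefSeq promoters (19 promoters of 17 genes) held CAAAACA in 3, those of *G6pc*, *Igfbp1* and *Ccng2*, against 6.28% of all promoters. GTAAACA was in 2, against 3.65% of all promoters. These were that of *Txnip* and 1 of *Sesn1*, where the match begins 22 bases after the start.

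None of the 13 genes of metabolism that insulin induces passed in edgeR or in DESeq2, which called 0.071% and 5.27% of all genes. An unadjusted edgeR p under 0.05 was found for 0 of the 13, against 10.6% of all genes lower and 11.2% higher. *Srebf1*, the transcription factor of fatty acid synthesis, gave 0.21 (adjusted p = 0.653), and *Scd1*, a fatty acid desaturase, gave 0.80 (adjusted p = 0.316) with 1350 to 3971 CPM in *Srsf10-kd* against 433 to 1918 CPM in *Ctrl* livers. *Acly*, *Elovl6* and *Insig1* lay between -0.29 and -0.26 with overlapping groups, and at -0.14, -0.079 and -0.27 without the length trend.

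*Irs2* was then set against transcripts that insulin lowers (*Pck1*, *G6pc* and *Igfbp1*) or raises (*Srebf1*) across the 8 livers, with exact permutation tests of the pairing and adjustment over the 5 relations computed. For *Pck1*, Pearson's r was 0.71 (exact permutation p = 0.037, adjusted 0.185) and Spearman's rho was 0.69 (exact permutation p = 0.0694, adjusted 0.331). Without *Ctrl* 4 and *Srsf10-kd* 2, the livers farthest from the median of *Irs2*, r was 0.69 (exact permutation p = 0.106). For *Igfbp1* r was 0.54 and rho 0.43 (exact permutation p = 0.160 and 0.299), and r was 0.30 without the 2 livers. For *G6pc* r was 0.26 and rho 0.14 (exact permutation p = 0.536 and 0.752), and r was 0.39 without them. For *Srebf1* r was -0.42 and rho -0.40 (exact permutation p = 0.293 and 0.327). Without the 2 livers r was 0.33 for *Srebf1* (exact permutation p = 0.444), and without the length trend it was -0.61 (exact permutation p = 0.106), so its sign was not settled. The adjusted p of *Igfbp1*, *G6pc* and *Srebf1* lay between 0.319 and 0.752. None of the 5 passed the adjustment. As *Irs2* separates the groups, the deviations from the group means were also permuted exactly within each group (576 orders, added after the data were seen). They gave r = 0.79 for *Pck1* (exact permutation p = 0.0208, adjusted over the 5 relations 0.104) and 0.73 for *Igfbp1* (exact permutation p = 0.0694, adjusted 0.174). For *G6pc* r was 0.011 (exact permutation p = 0.990) and for *Srebf1* -0.48 (exact permutation p = 0.306), so none passed the adjustment here either.

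The genes whose log2 CPM followed *Irs2* most closely over the 8 livers, among 8117 genes with a mean log2 CPM of at least 3, were *Tbc1d14* (r = 0.994), *Tnpo3* (r = 0.981) and *Ascc3* (r = 0.969). For *Insr* they were *Rptor* (r = 0.992), *Dhx8* and *Arhgef18*, for *Foxo1* *Wdfy1* (r = 0.961), *Rcc2* and *Tars2*, and for *Foxo3* *Mylk* (r = 0.985), *Brpf1* and *Wbp1l*. The closest for *Irs1* was *Jak3* (r = 0.981), for *Pik3ca* *Trib1* (r = 0.960), for *Pik3r1* *Ppp5c* (r = 0.948), for *Akt1* *Zfp426* (r = 0.992) and for *Akt2* *Zfp397* (r = 0.984). These values describe 8 points that share their libraries and the length trend between them, and each is the highest of many.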

How the data were processed

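Poly(A) RNA of 8 flash-frozen livers was sequenced from directional libraries. The authors used STAR (2.7.7a, per the submitters' processing notes) to align reads against GRCm38, and deposited raw, unnormalised counts for each gene. The annotation release and strand setting are not given in the sources used here. Each column matched 1 liver by its label, and no library was a duplicate, as over 28 pairs the counts differed by a chi-square of at least 46.5 per degree of freedom. Groups follow the labels, and p-values measure the spread between these 8 livers.

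Here the counts were compared in R 4.3.3 with edgeR 4.0.16 (TMM, filterByExpr, two-sided quasi-likelihood test, Benjamini-Hochberg over 15491 genes, threshold 0.05). CPM were scaled with TMM, and the prior count on the log2 scale was 2. The standard error is the size of the log2 fold change divided by the square root of F. For single genes and ratios, group labels were permuted exactly over 70 assignments, two-sided (scipy 1.17.1). The length and GC corrections fit a lowess trend (span 0.5) to each library's deviations of log2 CPM from the gene means. The trend enters the edgeR model as an offset. For ratios and correlations the length trend is subtracted from log2 CPM. Alternatives were DESeq2 1.42.0, limma-voom (limma 3.58.1) with sample quality weights, scaling by DESeq2's size factors or by library size, testing all genes or those with 10 counts or more in each liver, a replicate block, both corrections, and each liver left out.

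The 9 genes and all lists were chosen by name with earlier results of these data known. Named are the 9 genes, *Srsf10*, *Ins1*, *Ins2*, the transcripts set against *Irs2*, in each list every gene called by edgeR or DESeq2 and the up to 4 with the smallest unadjusted p, and for the 9 genes those with the highest Pearson r. *Akt2-ps* and overlapping genes are named where they bear on counting, and *Ccng2*, *Sesn1* and *Txnip*, after their sequences were searched, for their motifs. Positions come from GENCODE M21, which holds 45143 of the 45706 identifiers. Promoters come from RefSeq on GRCm38.p6. The scripts were tested on simulated data. Protein sequences were not used here, and some genes that this rule names are not reported here.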

Additional observations from a re-analysis of the deposited data

Results flagged for a closer look

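Within each group of 4 livers, a liver was singled out where its gap to the nearest other liver exceeded Dixon's critical share of the group's range. This was examined in 110 groups of values and found in 14, where chance alone gives about 1 in 20, or 5.5. In 2 of the 14, *Ins1* and *Ins2* in *Ctrl*, the other 3 livers were at 0, so any count is singled out, and without them it was found in 12 of 108, where chance gives about 5.4. Among the 9 genes it was *Srsf10-kd* 3 for *Akt2* (61.9 CPM, next 74.4 CPM) and for *Foxo1* (65.4 CPM, next 56.4 CPM). Among the ligands it was *Srsf10-kd* 2 for *Ins1* (1.98 CPM) and *Ins2* (5.40 CPM), and *Ctrl* 1 for *Ins1* (0.0174 CPM) and *Ins2* (0.0694 CPM), which had 1 and 4 counts. In the other lists it was *Ctrl* 3 for *Phlpp2* (2.59 CPM, next 3.65 CPM) and *Acly* (100.5 CPM, next 109.5 CPM), *Ctrl* 4 for *Igfbp1* (80.3 CPM, next 36.3 CPM), *Srsf10-kd* 2 for *Ywhaz* (78.7 CPM, next 88.7 CPM) and *Srsf10-kd* 3 for *Fbxo32* (4.11 CPM, next 2.63 CPM). Among the marker sums it was *Srsf10-kd* 4 for hepatocytes (107912 CPM, next 93889 CPM), *Srsf10-kd* 3 for stellate cells and fibroblasts (77.9 CPM, next 63.9 CPM) and *Ctrl* 3 for lymphocytes (3.52 CPM, next 2.08 CPM). A liver numbered 3 was the one singled out in 7 of the 14, where each group of 4 livers has 1 of that number. The groups of values come from the same 8 libraries, so the counts above are not of independent events. *Ctrl* 4, singled out for *Igfbp1*, also had the highest *Irs2* of all livers.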

How the results depend on the processing

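Over all genes, the main count of 11 called became 824 with DESeq2, 1814 with limma-voom, 46 without the filter on low counts, 59 with the replicate number as a block, 0 with the replicate block and the length correction, 0 to 544 with 1 liver left out, and 1342 without both livers numbered 3 (added after the data were seen). *Ctrl* 3 decided the upper end, as 544 genes were called without it. Of the 9 genes, 0 were called in the main test, 1 with DESeq2, limma-voom, no filter or the replicate block, 0 to 1 with 1 liver left out (1 without *Ctrl* 3) and 3 without both livers numbered 3. Of the other lists, 0 genes became 5 with DESeq2, 18 with limma-voom, 1 with the replicate block, 0 to 7 with 1 liver left out and 15 without both livers numbered 3. *Irs2* passed the threshold with DESeq2 (-1.76), limma-voom (-1.61), no filter (-1.76, adjusted p = 0.0357), the replicate block (-1.73, adjusted p = 0.0364) and without both livers numbered 3 (-1.82), and lay between -1.95 and -1.51 with 1 liver left out. The labels do not say what a replicate number shares. Deviations of same-numbered livers 1 to 4 correlated at -0.18, 0.21, 0.27 and 0.22, so the numbers were not taken as pairs, although *Srsf10-kd* 2, 3 and 4 correlated best with the *Ctrl* liver of their own number. With the block *Insr* had an adjusted p of 0.150.

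Signs turned in small differences. The length correction, alone and with the replicate block, gave *Insr* 0.0556 and 0.0564, *Irs1* 0.20 and 0.19, *Pik3ca* 0.18 and 0.18, and *Foxo3* 0.0358 and 0.0422, and the ratio of *Akt2* to *Akt1* became 0.0572. *Pik3r1* was -0.29 and *Foxo1* -0.11 in limma-voom, and -0.15 and -0.17 without both livers numbered 3. With 1 liver left out *Irs1* ran from -0.25 to 0.0518, *Pik3r1* from -0.12 to 0.15 and *Foxo1* from -0.11 to 0.19. Without the 2 livers farthest from the median of *Irs2*, r was 0.33 with *Srebf1* and 0.69 with *Pck1*, which was 0.69 after the length correction too, and both values with *Pck1* missed an exact permutation p of 0.05. The causes were not tested. Depth limits *Irs2* little, at 101 to 786 counts per liver, and limits *Ins1* and *Ins2* outside *Srsf10-kd* 2.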
